A study of Mus musculus with 2 samples.

Results

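The genes examined were 5 bone morphogenetic protein (BMP) ligands, Bmp2, Bmp4, Bmp5, Bmp6 and Bmp7, and 4 secreted BMP antagonists, Nog, Grem1, Chrdl1 and Bmper. They were chosen by symbol and made up 9 of the 32285 genes in the deposited matrices. Their UMIs were counted in barcodes with 1000 or more UMIs, 500 or more genes and no more than 20% of UMIs from mitochondrial genes, and a barcode was given the class whose 3 marker genes had the most UMIs, with a minimum of 5. The tissue was the complex of choroid and retinal pigment epithelium (RPE), the pigmented or, in albino animals, unpigmented cell sheet between photoreceptors and the choroidal vessels. It came from wild-type mice of the ICR strain at 8 weeks of age, with no treatment and no mutant group. Each of the 2 single-cell libraries pooled choroids from 1 male and 1 female, so the sexes could not be told apart. The p-values measure only how differences between classes or subgroups varied across these 2 pools, not the spread between animals. Any shift that all classes of a library shared was removed by a library block. The tissue was digested with collagenase A and then trypsin before droplet capture and 3' end counting.

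BMPs are secreted dimers that bind pairs of type I and type II receptor kinases, which phosphorylate SMAD1, SMAD5 and SMAD9. These enter the nucleus with SMAD4 and switch on genes such as the Id family of helix-loop-helix inhibitors and the inhibitory SMADs. Noggin, gremlin and the chordin-like proteins bind the ligands outside the cell and keep them from their receptors, while BMPER can inhibit or promote signalling depending on its level. In the developing eye BMP4 and BMP7 are needed for lens and optic cup formation, and BMP signals are known to favour RPE fate.

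Promoters of 5 of the 9 genes (Bmp4, Bmp5, Bmp6, Bmper and Grem1) were in the RefSeq table of GRCm38.p6. Those of Bmp4 and Bmp6 are printed, since these 2 ligands had their highest levels in the same class. The windows run from 250 bases before to 50 bases after the RefSeq start. The first lies at chr14:46390620-46390919 on the minus strand and the second at chr13:38345466-38345765 on the plus strand. Both run 5′ to 3′ along the gene, and capitals mark the palindromic E-box CACGTG.
Bmp4: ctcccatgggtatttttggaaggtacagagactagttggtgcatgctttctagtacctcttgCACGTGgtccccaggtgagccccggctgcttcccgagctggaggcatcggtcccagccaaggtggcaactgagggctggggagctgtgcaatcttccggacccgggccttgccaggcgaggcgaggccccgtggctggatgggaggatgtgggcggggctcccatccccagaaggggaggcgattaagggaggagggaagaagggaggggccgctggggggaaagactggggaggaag
Bmp6: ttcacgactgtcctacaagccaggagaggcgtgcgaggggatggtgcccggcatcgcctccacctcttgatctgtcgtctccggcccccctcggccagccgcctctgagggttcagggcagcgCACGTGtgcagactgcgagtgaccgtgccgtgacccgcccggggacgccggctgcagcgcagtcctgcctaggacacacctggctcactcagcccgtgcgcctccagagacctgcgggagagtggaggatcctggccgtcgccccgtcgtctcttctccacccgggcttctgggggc
Each of these held CACGTG 1 time, and none of the promoters of Bmp5, Bmper and Grem1 held it. The motif was present in 7.15% of all 32851 promoters of the same length. The GC box GGGCGG, searched on both strands, occurred 1 time each in Bmp4, Bmp6 and Bmper and 3 times in Grem1, and in 35.7% of all promoters. Neither the homeobox core TAATCC (7.06% of all promoters) nor the M-box CATGTG (14.2%) was found on either strand in any of the 5 windows. These matches describe the letters of the windows and were not tested for binding.

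In GRCm38 (GENCODE M21) all 9 genes are protein-coding. Bmp4 lies on chromosome 14 (46383520 to 46390669, minus strand), Bmp6 on chromosome 13 (38345107 to 38500302, plus strand) and Bmp5 on chromosome 9 (75775364 to 75900310, plus strand). The Bmp6 window printed above, 38345466 to 38345765, lies wholly inside these gene bounds. Its RefSeq start is thus further along the gene than the GENCODE start, and the sequence before the GENCODE start was not searched. Bmp2 (133552159 to 133562885, plus strand), Grem1 (113746164 to 113758646, minus strand) and Bmp7 (172868012 to 172940321, minus strand) are on chromosome 2. Bmper is on chromosome 9 (23223076 to 23485200, plus strand), Nog on chromosome 11 (89300638 to 89302332, minus strand) and Chrdl1 on chromosome X (143285674 to 143394262, minus strand). Gm15217 and Gm15222 overlap Bmp4 on the other strand, 4930579J19Rik and Txndc5 overlap Bmp6 on the other strand, and Gm47723 overlaps Bmp5 on its own strand with Gm26903 opposite. The counts of these 3 ligands are therefore less certain, and the share of their reads that the overlaps took was not tested.

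The libraries held 91741168 and 149570817 UMIs, and 8497 and 13401 barcodes passed the limits, with median UMIs of 7842 and 8253. The 6 classes ranged in size from 304 to 6278 barcodes per library: RPE 304 and 902, fibroblast 4095 and 6278, melanocyte 1407 and 2249, endothelial 465 and 609, mural (pericytes and smooth muscle) 1118 and 1713, and macrophage 430 and 866. Of the 4 RPE markers that the class rule did not use, Ttr, Lrat and Slc16a8 were abundant in the RPE class and Best1 was nearly absent, at 0.205 and 0.459 CPM, the UMIs of a gene scaled to a common library total. The lists checked in the other 5 classes summed to between 1343 and 8759 CPM in their own class. The libraries shared 31 barcode sequences, 0.365% and 0.231% of their kept barcodes. Barcodes with UMIs of a second class were kept in the results unless stated. Of RPE barcodes, 92.4% and 91.4% had at least 5 such UMIs, at a median depth of 26254 and 19066 UMIs per RPE barcode. In RPE the melanocyte class markers Dct, Pmel and Mlana summed to 1829 and 1593 CPM. Each other non-RPE class list summed to at most 303 CPM there.

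These 5 ligands and 4 antagonists had different main sources. Sostdc1, a further antagonist taken up below, was not counted here. Its mean level after scaling was 583 CPM in RPE and 65.9 CPM in fibroblasts. RPE barcodes carried 61.1% and 63.1% of the ligand UMIs of the 6 classes in the 2 libraries, and fibroblasts 21.6% and 19.2%. Of the antagonist UMIs, fibroblasts carried 61.8% and 69.9% and RPE 22.4% and 15.8%. RPE was the main ligand source in both libraries although it made up 3.58% and 6.73% of the kept barcodes. These shares depend on how many cells of each class survived digestion as well as on the RNA per cell.

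**Figure D1:**
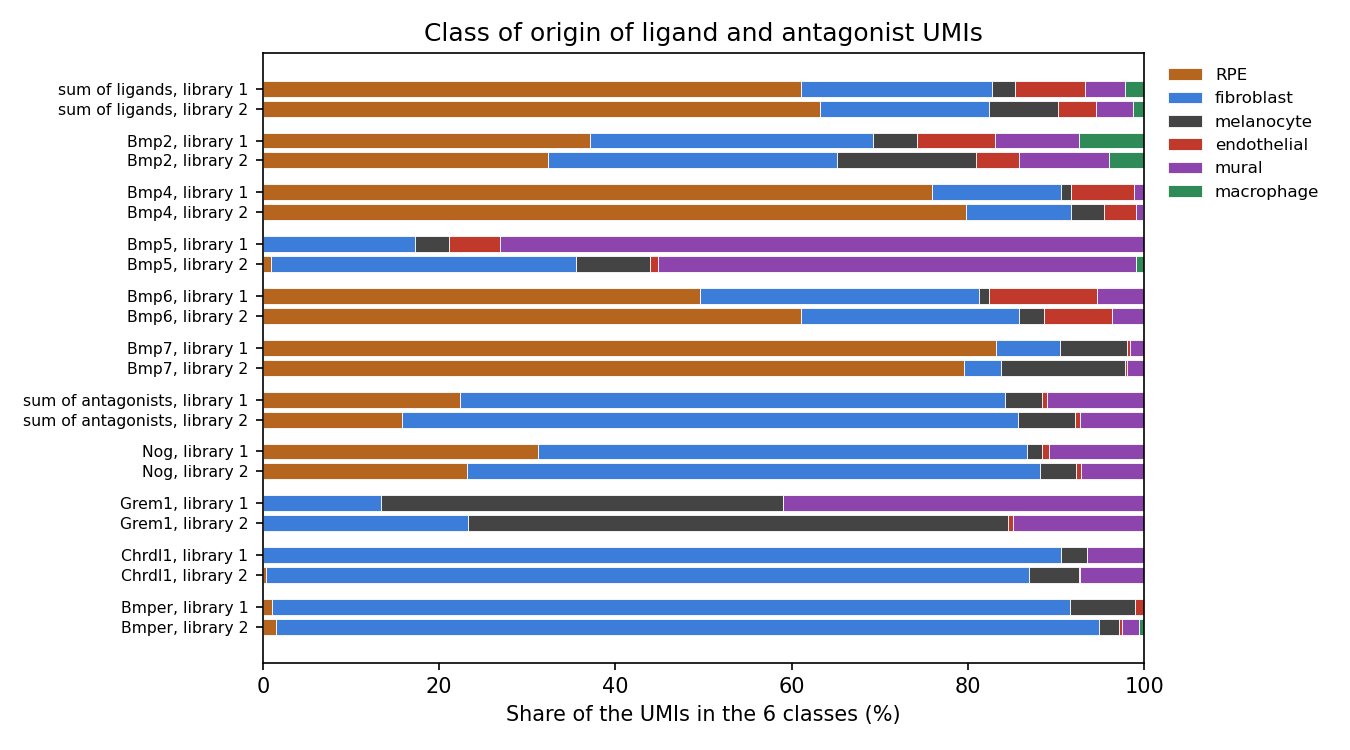
Share of the UMIs of each gene, and of the ligand and antagonist sums, that fell in each of 6 cell classes (x axis, percent of UMIs in the 6 classes), with 1 bar for each library. RPE holds 61.1% and 63.1% of the ligand sum, and fibroblasts hold 61.8% and 69.9% of the antagonist sum, which leaves out Sostdc1.

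The log2 ratio of ligand to antagonist UMIs within a class ordered the classes otherwise than these shares, with macrophages and endothelial barcodes above RPE. It was 2.63 and 3.19 in RPE (mean 2.91 ± 0.39, SD, n = 2) and −0.34 and −0.68 in fibroblasts (−0.51 ± 0.24). Fibroblasts had fewer ligand than antagonist UMIs in both libraries, but without barcodes of a second class library 1 had 1347 ligand and 1306 antagonist UMIs, a ratio of 0.045, and library 2 stood at −0.36. Mural barcodes were at −0.10 and 0.40, and without the barcode with the most Grem1 in each class and library at 0.14 and 0.46. Melanocytes were at 0.52 and 1.45, and the sign in library 1 turned to −0.14 with a mitochondrial maximum of 10% and to −0.13 without barcodes positive for Pax6, Pcp4 and Optc. Endothelial barcodes had 827 and 945 ligand UMIs against 28 and 47 antagonist UMIs, a log2 ratio of 4.88 and 4.33. Macrophages had 236 and 280 ligand UMIs, nearly all of Bmp2, and 3 and 8 antagonist UMIs. The ratio sums genes whose 3' ends may be captured unequally, and the genes that made up each sum differed between classes. Its zero point and the order of the classes may both depend on this. The ratio was given no test.

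Each class was then set against the mean of the other 5 classes with edgeR's quasi-likelihood test on UMIs summed per library and class, in 1 fit of 15420 genes, and a gene was called where the adjusted p was under 0.05 and the log2 fold change was 1 or more in either direction. The mean of the other 5 classes was taken over log2 levels, so classes near 0 lowered it. A class could be called higher while another stood far above it, as for Bmp7 and Chrdl1 in melanocytes and Bmp4 in endothelial barcodes. All 9 genes passed the filter on low counts. In RPE 5 of the 9 were called higher (Bmp2, Bmp4, Bmp6, Bmp7 and Nog), where 26.1% of all genes were, and 1 was called lower (Bmp5), where 24.6% were. In fibroblasts 3 were higher, all antagonists (18.2% of all genes), and 0 were lower (8.74%). In mural barcodes 4 were higher (14.6%) and 1 lower (10.4%), in melanocytes 3 were higher (14.5%) and 3 lower (11.3%), in endothelial barcodes 2 were higher (15.4%) and 1 lower (20.8%), and in macrophages 0 were higher (19.5%) and 5 lower (21.3%). Both counts of 0 were also 0 at an unadjusted p below 0.05 and with DESeq2. Set against single classes, RPE had 4 genes higher and 4 lower than fibroblasts (25.7% and 27% of all genes), 5 higher and 2 lower than melanocytes (20.1% and 19.7%), 4 higher and 0 lower than endothelial barcodes (29.9% and 25%), 4 higher and 3 lower than mural barcodes (27.3% and 25.7%) and 4 higher and 0 lower than macrophages (29.3% and 25.1%). Fibroblasts had 2 higher and 2 lower than mural barcodes (11.2% and 7.81%). Levels below are CPM after TMM scaling, with library 1 before library 2, and those of subgroups were scaled in a fit of their own.

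**Figure D2:**
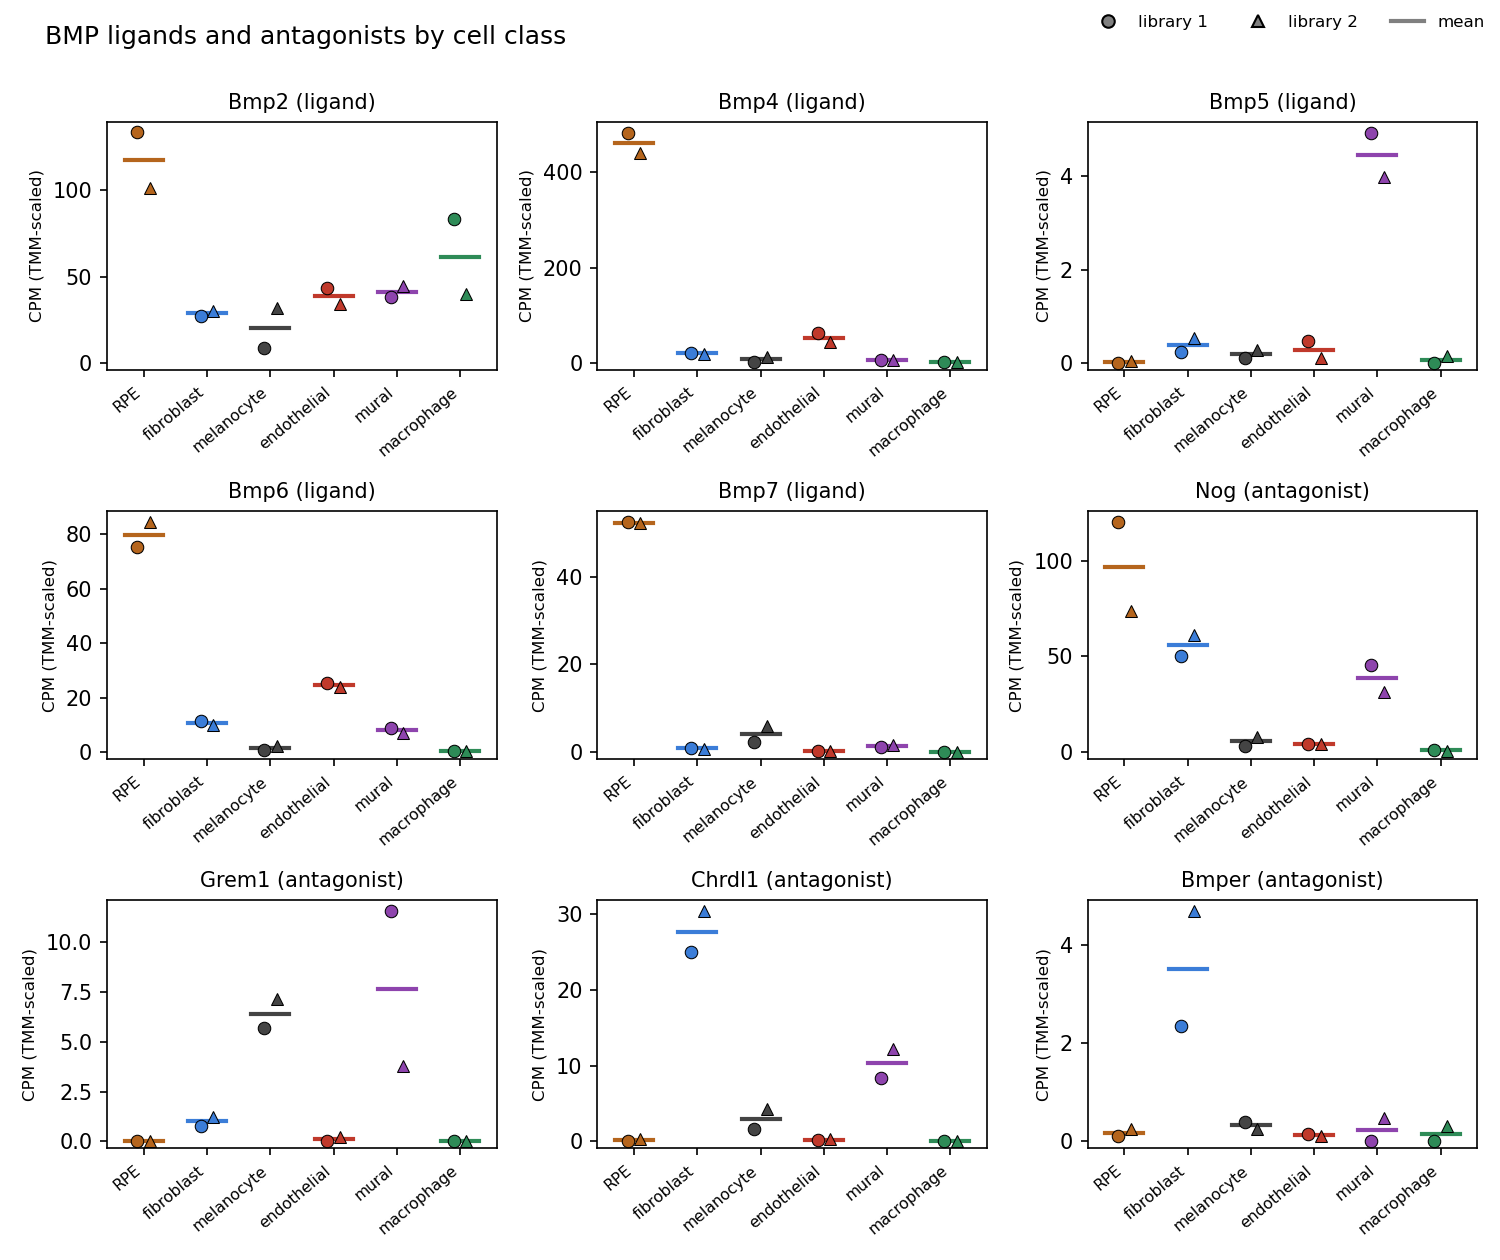
TMM-scaled CPM (y axis, linear, own range in each panel) of the 5 ligands and 4 antagonists in 6 cell classes. Circles are library 1, triangles library 2 and lines the mean of both. Bmp4, Bmp6 and Bmp7 stand highest in RPE in both libraries, Bmp5 in mural barcodes, and Chrdl1 and Bmper in fibroblasts.

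Among the ligands, Bmp4, which patterns the dorsal retina and the optic vesicle in development, had its highest level in RPE. It stood at 481 and 439 CPM in RPE, against 62.4 and 44.9 in endothelial barcodes and 21.9 and 19.3 in fibroblasts. The remaining 3 classes lay between 1.81 and 13.6 CPM, and no class overlapped RPE. RPE exceeded the mean of the other classes by 5.41 ± 0.33 on the log2 scale (SE, adjusted p = 7.2e-06, edgeR's quasi-likelihood test), and over endothelial barcodes, the next class, it was 3.10 ± 0.53 (adjusted p = 0.0017). The SE of a log2 fold change, here and below, is its size over the square root of the test's F value, and is approximate. RPE held 75.9% and 79.8% of Bmp4 UMIs. A Bmp4 UMI was found in 91.8% (95% exact interval 88.1 to 94.6) and 88.4% (86.1 to 90.4) of RPE barcodes, against 0.930% and 1.04% of macrophage barcodes with median depths of 8727 and 8412.5 UMIs. After thinning every barcode to 1000 UMIs the RPE shares were 36.2% and 28.0%, against 0.233% and 0.346% in macrophages. All intervals cover counting error only.

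Bmp4 was also called higher in endothelial barcodes (1.68 ± 0.40, adjusted p = 0.011, edgeR's quasi-likelihood test), and there it was unevenly spread. Capillary endothelial barcodes, 323 and 444 of them, had 35.1 and 31.0 CPM, while venous ones, 91 and 95 of them, had 175 and 163 CPM. In the fit of 30 sums of subgroups, capillary barcodes were lower than venous ones by −2.36 ± 0.43 on the log2 scale (adjusted p = 0.0016), and 2 of the 9 genes, Bmp4 and Bmp6, were lower, where 2.25% of 14384 genes were, and 0 were higher (3.18%). Arterial barcodes were too few (13 and 20) and were not used. With free RNA subtracted, the call of Bmp4 in endothelial barcodes was lost (log2 fold change 3.65, adjusted p = 0.075), and free RNA held 58.3 and 61.7 CPM of Bmp4 before scaling.

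Bmp6, known as the endothelial signal that sets hepcidin in the liver, had 75.2 and 84.4 CPM in RPE, against 25.4 and 23.9 in endothelial barcodes and 11.3 and 10.1 in fibroblasts. RPE was higher than the mean of the others by 4.18 ± 0.19 on the log2 scale (adjusted p = 3.0e-09, edgeR's quasi-likelihood test) and higher than endothelial barcodes by 1.70 ± 0.25 (adjusted p = 8.3e-05). The order of RPE, then endothelial, then fibroblast held in both libraries. Endothelial barcodes were themselves higher than the mean of the others by 2.14 ± 0.23 (adjusted p = 1.1e-05). Within them Bmp6 followed Bmp4, with 22.8 and 21.4 CPM in capillary and 41.3 and 51.3 in venous barcodes (−1.07 ± 0.34, adjusted p = 0.049), and this call was lost on raw totals (adjusted p = 0.051). In mural barcodes, pericytes had 0.804 and 1.39 CPM and smooth muscle 20.8 and 14.3, a difference of −3.82 ± 0.50 (adjusted p = 6.9e-06).

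Bmp7, a ligand needed for eye and kidney development in mice, had 52.3 and 52.1 CPM in RPE, against 2.36 and 5.93 in melanocytes and 0.813 to 1.79 in fibroblasts and mural barcodes. RPE exceeded melanocytes, the next class, by 3.64 ± 0.30 on the log2 scale (adjusted p = 3.6e-06, edgeR's quasi-likelihood test). No Bmp7 UMI was found in macrophages, so RPE was at least 184-fold above macrophages (3 counts over both libraries as the floor, CPM before scaling). Melanocytes, though far below RPE, were called higher than the log2 mean of the others (2.63 ± 0.51, adjusted p = 0.0015). In this class, however, 7 and 63 barcodes with at least 5 RPE UMIs carried 12.2% and 43.6% of the Bmp7 UMIs and 26.2% and 67.7% of the Bmp4 UMIs. Without such barcodes Bmp7 in melanocytes was at 2.33 (adjusted p = 2.5e-04), and without any barcode of a second class it was at 0.92 and not called (adjusted p = 0.27).

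Bmp2, a ligand known for inducing bone, had 133 and 101 CPM in RPE, against 83.3 and 40.1 in macrophages, 38.2 and 44.7 in mural barcodes, 43.7 and 34.3 in endothelial barcodes, 27.2 and 30.4 in fibroblasts and 9.03 and 31.9 in melanocytes. RPE was called higher than the mean of the others (1.72 ± 0.41, adjusted p = 0.0091, edgeR's quasi-likelihood test), as well as over fibroblasts (2.03 ± 0.60, adjusted p = 0.022) and melanocytes (2.50 ± 0.62, adjusted p = 0.014). It did not pass against macrophages (0.97 ± 0.62, adjusted p = 0.21) or endothelial barcodes (1.59 ± 0.61, adjusted p = 0.058), nor against mural barcodes (adjusted p = 0.066). With barcodes of a second class left out, which kept 23 and 78 RPE barcodes, RPE stood at 1.21 and was not called (adjusted p = 0.58). RPE and fibroblasts supplied similar shares of its UMIs, 37.1% and 32.4% against 32.1% and 32.7%.

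Bmp5, a close relative of Bmp6 and Bmp7, was the one ligand with its highest level in mural barcodes. They had 4.92 and 3.99 CPM (38 and 58 UMIs), while fibroblasts had 0.247 and 0.537 and RPE had 0 and 1 UMI. Mural barcodes were higher than the mean of the others by 4.80 ± 0.44 on the log2 scale (adjusted p = 1.3e-06, edgeR's quasi-likelihood test), and fibroblasts were lower than mural barcodes by −3.44 ± 0.48 (adjusted p = 1.2e-04). Within the mural class its level was close in pericytes (5.09 and 4.80 CPM) and smooth muscle (5.79 and 3.92 CPM), and the difference of 0.06 ± 0.60 did not pass. The lower call in RPE rests on that single UMI and was lost without Scrublet doublets or without barcodes of a second class (adjusted p = 1 in each), at log2 fold changes of −4.91 and −3.62 against −3.39 with all barcodes.

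Among the antagonists, Nog encodes noggin, which binds BMP4 tightly and also BMP2 and BMP7. It was expressed in 3 classes, with 120 and 73.8 CPM in RPE, 50.1 and 61.4 in fibroblasts and 45.7 and 31.7 in mural barcodes. The other 3 classes lay between 0.929 and 8.20 CPM and did not overlap these. RPE was higher than the mean of the others by 3.44 ± 0.29 (adjusted p = 1.3e-05, edgeR's quasi-likelihood test), fibroblasts by 2.49 ± 0.30 (adjusted p = 1.9e-04) and mural barcodes by 1.85 ± 0.33 (adjusted p = 0.0021). The difference between RPE and fibroblasts was 0.79 ± 0.37 and did not pass (adjusted p = 0.089), nor did that between fibroblasts and mural barcodes (0.54 ± 0.38, adjusted p = 0.32), while RPE was above mural barcodes by 1.33 ± 0.38 (adjusted p = 0.015).

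A Nog UMI was found in 65.5% (59.8 to 70.8) and 45.5% (42.2 to 48.8) of RPE barcodes, against 0.698% and 0.693% of macrophage barcodes. At 1000 UMIs per barcode the shares were 12.5% and 5.88% in RPE and 3.35% and 4.49% in fibroblasts. The 3 fibroblast class markers summed to 107 and 303 CPM before scaling in RPE barcodes, against 18014 and 17350 in fibroblasts, while Nog before scaling was at 106 and 69.1 CPM in RPE and 48.0 and 69.0 in fibroblasts. Free RNA held 28.0 and 35.8 CPM of Nog before scaling. Of RPE barcodes, 92.4% and 91.4% had at least 5 UMIs of a second class. Among the markers of other classes, those of melanocytes were the most abundant in RPE, at 1829 and 1593 CPM before scaling. Nog in RPE was still called higher with free RNA subtracted and, separately, without barcodes of a second class. The latter filter kept only 23 and 78 RPE barcodes, with 13 and 26 antagonist UMIs. RPE barcodes with both a ligand and an antagonist UMI made up 64.8% and 44.9% of the class, and at 1000 UMIs per barcode 4.28% and 2.88%.

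Chrdl1, a chordin-like antagonist of BMPs, was highest in fibroblasts. It had 24.9 and 30.3 CPM in fibroblasts, against 8.42 and 12.2 in mural barcodes and 1.67 and 4.22 in melanocytes. Fibroblasts exceeded mural barcodes by 1.46 ± 0.25 on the log2 scale (adjusted p = 7.8e-04, edgeR's quasi-likelihood test) and held 90.5% and 86.6% of its UMIs. RPE had 0 and 8 UMIs, and macrophages 0, so fibroblasts were at least 116-fold above macrophages (CPM before scaling). Chrdl1 was also called higher in mural barcodes (adjusted p = 1.4e-06) and in melanocytes (2.20, adjusted p = 0.0036). The melanocyte call was lost without Scrublet doublets (1.87, adjusted p = 0.054), without barcodes of a second class (0.91, adjusted p = 0.34) and without the barcodes positive for Pax6, Pcp4 and Optc described below (1.35, adjusted p = 0.050).

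Bmper, a secreted protein first described in endothelial precursors, was low in all classes and highest in fibroblasts. It had 2.36 and 4.69 CPM in fibroblasts (86 and 323 UMIs), and no other class exceeded 0.482 CPM. Fibroblasts were higher than the mean of the others by 4.03 ± 0.37 (adjusted p = 1.3e-06, edgeR's quasi-likelihood test), and above mural barcodes by 3.61 ± 0.60 (adjusted p = 4.7e-04). Endothelial barcodes had 1 Bmper UMI in each library.

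Grem1, gremlin, which binds BMP2, BMP4 and BMP7, rested on very few barcodes. It had 11.5 and 3.79 CPM in mural barcodes and 5.70 and 7.12 in melanocytes, against 0.794 and 1.25 in fibroblasts, and 0 UMIs in RPE and in macrophages. Melanocytes were at least 79.9-fold above RPE and at least 29.1-fold above macrophages (CPM before scaling). Both mural barcodes (adjusted p = 5.8e-04) and melanocytes (adjusted p = 4.3e-04) were called higher by edgeR's quasi-likelihood test.

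The 89 and 55 mural Grem1 UMIs came from 3 and 4 barcodes, with 84 and 31 in the top barcode of each library. All of them lay in the 5 and 12 mural barcodes with at least 5 UMIs of Pax6, Pcp4 and Optc, genes used here as a ciliary epithelium list. The Grem1-positive mural barcodes held 3571 and 1681 CPM of the 4 melanocyte check genes and 38.1 and 122 CPM of the 4 mural ones, where the whole mural class held 1429 and 1343 CPM of the mural ones. Without barcodes positive for that list, Grem1 in the mural class was at −3.99 and not called (adjusted p = 1). In melanocytes 27 of 99 and 206 of 226 Grem1 UMIs (27.3% and 91.2%) lay in list-positive barcodes. Without them the class stayed called higher (5.89, adjusted p = 0.019, edgeR's quasi-likelihood test). The same filter removed all mural Grem1 UMIs and so lowered the mean that melanocytes were set against. The size of this difference is thus no measure of the Grem1 level left in melanocytes. The 99 and 226 melanocyte Grem1 UMIs came from 7 and 26 barcodes, with 94 and 168 of them in 4 and 6 barcodes. The Grem1-positive melanocyte barcodes held 4008 and 4275 CPM of the melanocyte check genes, against 8759 and 8630 in the class. They also held 2497 and 2957 CPM of Glul, Slc1a3, Aqp4 and Dkk3, a Müller glia list. Of these Grem1 UMIs, 99 and 200 were in barcodes of neither melanocyte subgroup.

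**Figure D3:**
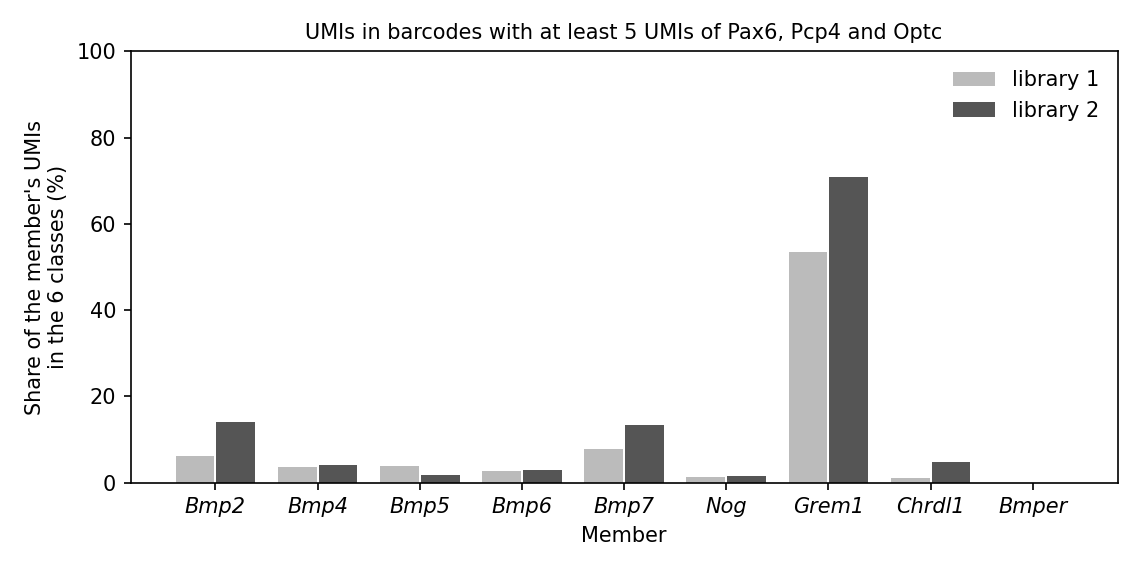
Share of each gene's UMIs in the 6 classes (y axis, percent) that lay in barcodes with at least 5 UMIs of Pax6, Pcp4 and Optc, which were 0.563% and 1.30% of class barcodes. Light bars are library 1 and dark bars library 2. Grem1 stands at 53.5% and 71.0%, and no other gene exceeds 13.9%.

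The same 44 and 164 barcodes held 6.13% and 13.9% of Bmp2 UMIs and 7.76% and 13.4% of Bmp7 UMIs. Most of the Bmp2 of the melanocyte class was there, with 71.3% and 70.0% of its UMIs in 2.35% and 5.74% of its barcodes. Without them Bmp2 in melanocytes was called lower than the mean of the other classes (−2.83, adjusted p = 0.0064, edgeR's quasi-likelihood test), which it was not with them (−1.29, adjusted p = 0.079). Bmp7 in melanocytes stayed called higher without them (2.00, adjusted p = 0.014).

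The lower calls fell mainly in macrophages and melanocytes. In macrophages Bmp4 (1.81 and 2.63 CPM), Bmp6 (0.362 and 0.464 CPM), Bmp7, Nog and Chrdl1 were lower, with log2 fold changes of −3.74 for Bmp4, −4.84 for Bmp6 and −4.50 for Nog. In melanocytes Bmp4 was lower by −1.46 ± 0.48 (adjusted p = 0.042, edgeR's quasi-likelihood test), Bmp6 by −2.37 ± 0.43 (adjusted p = 7.3e-04) and Nog by −1.36 ± 0.43 (adjusted p = 0.028). The libraries differed here: Bmp4 stood at −2.80 in library 1 by itself and −0.74 in library 2, and Nog at −2.30 in library 1 and −0.82 in library 2. The higher calls in melanocytes also differed, with Bmp7 at 0.94 in library 1 and 2.19 in library 2 and Chrdl1 at 0.97 in library 1 and 1.50 in library 2. Nog was also lower in endothelial barcodes, at 4.16 and 4.49 CPM (−1.92 ± 0.51, adjusted p = 0.013), and Bmp4 in mural barcodes, at 7.90 and 5.85 CPM (−1.92 ± 0.54, adjusted p = 0.024). With free RNA subtracted, 2 of the 5 macrophage calls and 0 of the melanocyte, endothelial and mural ones were made.

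Within fibroblasts, 7 subgroups taken from marker genes that are not among the 9 covered 73.6% and 72.3% of the class, and the antagonists were spread unevenly over them. Nog was highest in the Ltbp2/Comp subgroup, with 97.6 and 114 CPM, while the other 6 subgroups lay between 19.8 and 68.7 CPM. Against their mean it was higher by 1.51 ± 0.25 (adjusted p = 3.9e-04, edgeR's quasi-likelihood test). In this subgroup 3 of the 9 genes were higher (Bmp6, Nog and Chrdl1), where 2.81% of all genes were, and 0 were lower (2.98%). It made up 11.7% and 21.0% of fibroblasts in the 2 libraries, and fibroblast Nog was 50.1 and 61.4 CPM in the same libraries. How much of that difference came from the subgroup's share was not tested.

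Chrdl1 was highest in the Angptl7/Cilp2 subgroup, with 52.5 and 67.2 CPM (1.65 ± 0.18, adjusted p = 3.5e-07, edgeR's quasi-likelihood test). Next came Ltbp2/Comp, with 44.0 and 51.7 CPM (1.28 ± 0.16, adjusted p = 5.9e-06). Kera/Thbs4 followed with 33.7 and 47.4 CPM (0.999 ± 0.18, adjusted p = 6.3e-04), and was not called only because of the fold limit. Chrdl1 was lowest in the Tfpi2/Tcf21 subgroup, with 2.30 and 2.94 CPM, without overlap with any other subgroup. There 4 of the 9 genes were lower, where 7.62% of all genes were, with log2 fold changes of −3.59 ± 0.30 for Chrdl1, −3.19 ± 0.49 for Bmp6, −1.51 ± 0.55 for Bmper and −1.30 ± 0.34 for Nog. Of the 9 genes 0 were higher there, where 8.29% of all genes were.

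Bmper went another way. It was highest in the Pi16/Dpt/Clec3b subgroup, with 4.57 and 11.4 CPM (1.72 ± 0.36, adjusted p = 0.0026, edgeR's quasi-likelihood test), and in the Cxcl5/Csf3/Il11 subgroup, with 3.63 and 8.18 CPM (1.22 ± 0.35, adjusted p = 0.020). In each of these it was the single gene of the 9 called higher (2.86% and 3.6% of all genes), and 0 were lower (0.431% and 0.779%). In the Angptl7/Cilp2 subgroup, where Chrdl1 and Bmp6 were higher (2 of 9, against 6.3% of all genes), Bmper was lower at 1.10 and 0.382 CPM (−2.16 ± 0.70, adjusted p = 0.023, 4.98% of all genes lower). Library 2 was above library 1 for Bmper in 5 of the 7 subgroups, and in library 1 Pi16/Dpt/Clec3b and Crabp2/Ephb1 were both at 4.57 CPM. Among the counts of 0 in subgroups, 1 gene, Bmp5 in Pi16/Dpt/Clec3b, was lower at an unadjusted p below 0.05.

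The Kera/Thbs4 subgroup had 3 of the 9 genes higher (3.16% of all genes) and 0 lower (2.06%). Grem1 there had 24 and 65 UMIs of the 29 and 86 in all fibroblasts, at 7.43 and 16.4 CPM, while the other 6 subgroups were at or below 1.27 CPM (adjusted p = 0.027, edgeR's quasi-likelihood test). These UMIs came from 10 and 22 barcodes. The Grem1-positive barcodes of the whole fibroblast class held 0 and 1201 CPM of the keratin list (Krt5, Krt14, Krt15), against 12.3 and 50.1 in the class, and in library 2 538 CPM of the melanocyte check genes, against 71.8 in the class. Their part in the Grem1 level was not tested. Bmp6 had 23.5 and 13.6 CPM (1.45 ± 0.28, adjusted p = 0.0013), and Bmp4 had 49.8 and 26.5 CPM (1.13 ± 0.33, adjusted p = 0.034). For Bmp4 library 2 overlapped the Ltbp2/Comp and Angptl7/Cilp2 subgroups. In the Crabp2/Ephb1 subgroup Bmp6 alone was lower, at 3.35 and 1.77 CPM (−1.92 ± 0.44, adjusted p = 0.0054, 1.36% of all genes lower), and 0 were higher (2.47%).

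**Figure D4:**
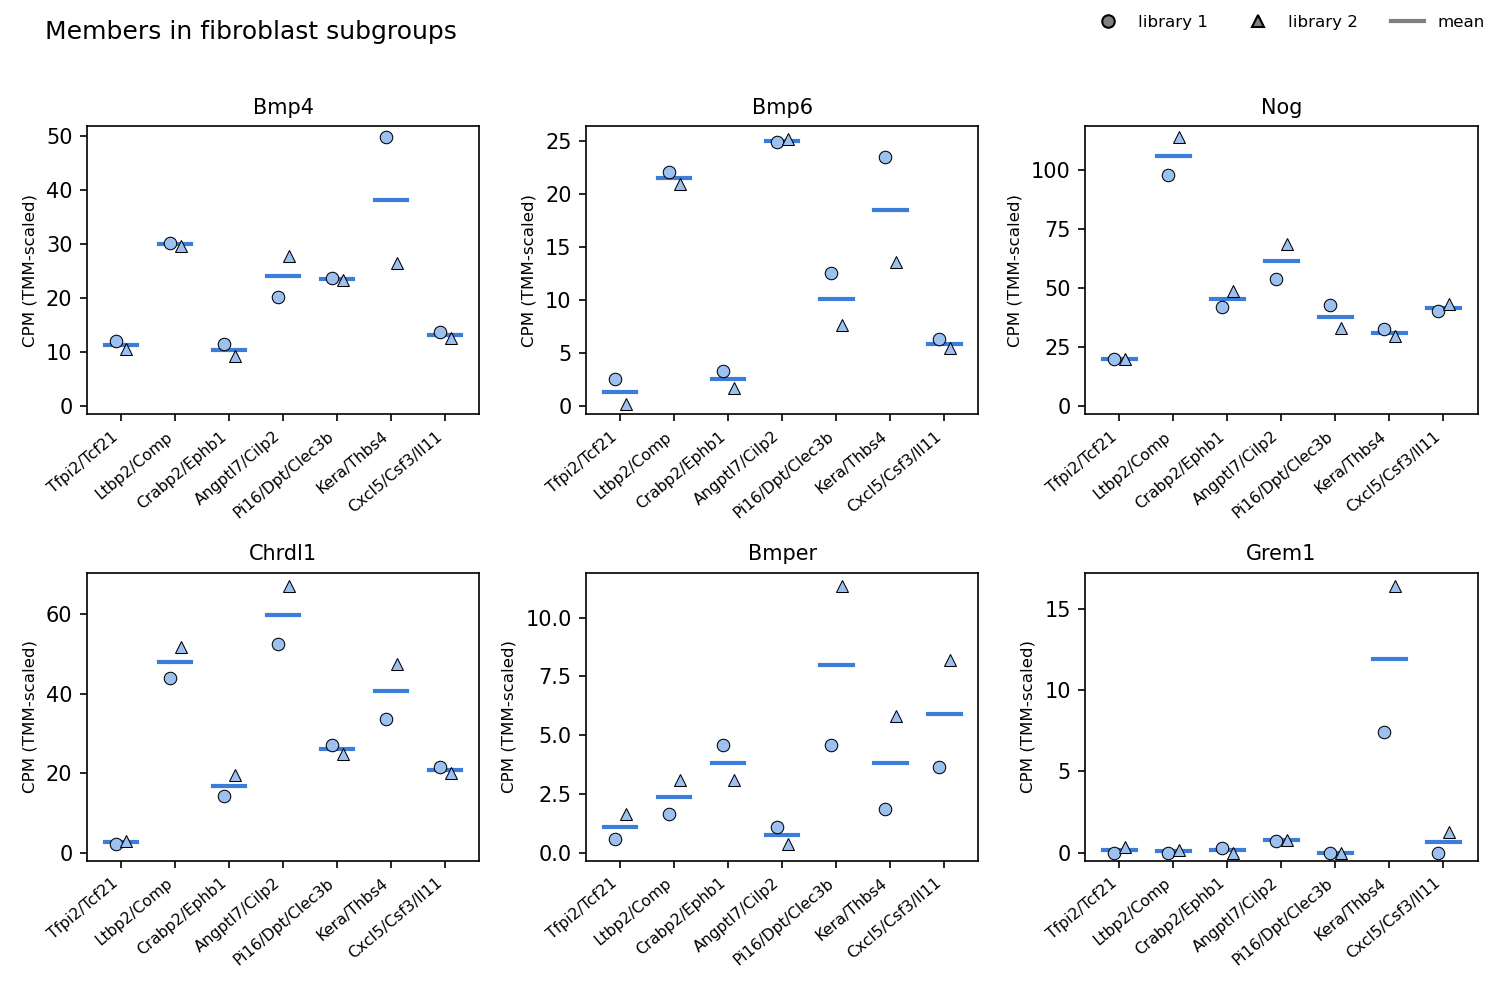
TMM-scaled CPM (y axis, linear, own range in each panel) of 6 genes in 7 fibroblast subgroups named by their marker genes. Circles are library 1, triangles library 2 and lines the mean. Nog peaks in Ltbp2/Comp (97.6 and 114 CPM), Grem1 in Kera/Thbs4 (7.43 and 16.4 CPM), and Chrdl1 is lowest in Tfpi2/Tcf21 (2.30 and 2.94 CPM).

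Mural Nog was likewise held by one subgroup. Pericytes had 7.78 and 8.99 CPM and smooth muscle 103 and 57.7 CPM, a difference of −3.22 ± 0.45 on the log2 scale (adjusted p = 5.7e-05, edgeR's quasi-likelihood test). With Bmp6, 2 of the 9 genes were lower in pericytes than in smooth muscle, where 6.68% of all genes were, and 0 were higher (5.21%). Chrdl1 did not pass between them (12.1 and 10.7 CPM in pericytes, 5.45 and 10.7 in smooth muscle). Of the 9 genes 0 were called between the 2 melanocyte subgroups by edgeR's quasi-likelihood test, none of them at an unadjusted p below 0.05, where 0.00695% of all genes were called in each direction.

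Over the 30 sums of subgroups and libraries, which share libraries and free RNA, the levels of Bmp4 and Bmp6 had a Pearson r of 0.76, Nog and Chrdl1 of 0.69 and Chrdl1 and Bmper of 0.67. The gene with the pattern most like Bmp4 was Slc16a4 (r = 0.88), followed by Hdhd3 (0.85) and Stra6 (0.83), the receptor for retinol-binding protein in RPE. The most similar to Bmp7 was Slc7a10 (0.92), to Nog Usp13 (0.92) and to Chrdl1 Ccn2 (0.96). For Grem1 the highest was Kctd16 at 0.71. These values describe the sums and were given no test.

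The other extracellular BMP regulators were taken from a list of 17 genes, 14 of which could be tested. The share of all genes called stands in parentheses after each count, with the list's median log2 fold change beside that of all genes. In fibroblasts 12 of the 14 were called higher (18.2%) and 0 lower (8.74%), with a median of 2.98 against −0.01. In mural barcodes 7 were higher (14.6%) and 0 lower (10.4%), with a median of 1.08 against −0.08. In RPE 5 were higher (26.1%) and 5 lower (24.6%), with a median of −0.90 against −0.07. In melanocytes 2 were higher (14.5%) and 2 lower (11.3%), with a median of −0.37 against −0.01. In endothelial barcodes 1 was higher (15.4%) and 8 lower (20.8%), with a median of −1.78 against −0.15. In macrophages 0 were higher (19.5%) and 12 lower (21.3%), with a median of −2.38 against −0.17. In fibroblasts Fst, follistatin, a binder of activins and some BMPs, had 333 and 364 CPM, against 5.47 and 8.18 in RPE.

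RPE had a further antagonist. Sostdc1, which binds BMPs and the Wnt co-receptor LRP6, had 698 and 467 CPM in RPE, against 58.7 and 73.0 in fibroblasts, and the other 4 classes were at or below 29.8 CPM. RPE exceeded the mean of the other classes by 6.13 ± 0.43 (adjusted p = 2.1e-05, edgeR's quasi-likelihood test). The Sostdc1 level in RPE was above that of Nog, at 120 and 73.8 CPM. Sostdc1 is not in the source shares or the ligand to antagonist ratio given above, and neither was computed with it. Sost, sclerostin, was highest in fibroblasts at 7.81 and 9.32 CPM (4.47 ± 0.30, adjusted p = 7.1e-08). Of 9 other ligands 2 could be tested, and both Bmp3, at 2.63 and 3.11 CPM, and Bmp15, with 52 and 90 UMIs, were higher in fibroblasts. Bmp15 was also higher in RPE (1.63 ± 0.44, adjusted p = 0.0048, edgeR's quasi-likelihood test) and lower in mural barcodes (−1.94 ± 0.75, adjusted p = 0.047), and Bmp3 was also higher in mural barcodes, at 1.81 and 2.75 CPM (adjusted p = 2.1e-05).

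The receptors were spread otherwise. Of 11 receptors and co-receptors tested, RPE had 3 higher (Acvr2b, Bmpr1a and Rgma), a share close to the 26.1% of all genes, and 6 lower (24.6%), with a median of −1.07 against −0.07. Endothelial barcodes had 5 higher (15.4%) and 3 lower (20.8%), with a median of 0.65 against −0.15, and fibroblasts 5 higher (18.2%) and 1 lower (8.74%), with 0.60 against −0.01. Mural barcodes had 4 higher (14.6%) and 0 lower (10.4%), with 0.33 against −0.08. Macrophages had 0 higher (19.5%) and 8 lower (21.3%), with −1.90 against −0.17, and melanocytes 0 higher (14.5%) and 0 lower (11.3%), with 0.10 against −0.01. Acvr2b, a type II receptor, had 25.6 and 22.6 CPM in RPE, against 3.68 and 3.40 in endothelial barcodes (3.48 ± 0.15 over the mean of the others, adjusted p = 3.2e-10, edgeR's quasi-likelihood test). Endothelial barcodes had 1238 and 1173 CPM of Eng, endoglin, and 299 and 317 CPM of Acvrl1, the type I receptor ALK1 of endothelium. The type I receptor Bmpr1a was at 0.960 and 3.72 CPM there, against 90.5 and 115 in mural barcodes, 61.4 and 82.0 in fibroblasts and 47.4 and 57.3 in RPE. Bmpr1b was highest in mural barcodes, with 5.57 and 13.4 CPM (3.27 ± 0.21, adjusted p = 4.1e-08).

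Of the 7 target genes, Id1 to Id4, Atoh8, Smad6 and Smad7, RPE had 0 higher (26.1% of all genes) and 5 lower (24.6%), with a median log2 fold change of −1.64 against −0.07 over all genes. Endothelial barcodes had 5 higher (15.4%) and 0 lower (20.8%), with a median of 1.82 against −0.15, and mural barcodes 5 higher (14.6%) and 1 lower (10.4%), with 1.46 against −0.08. Fibroblasts had 2 higher (18.2%) and 1 lower (8.74%), with 0.69 against −0.01, and melanocytes 1 higher (14.5%) and 1 lower (11.3%), with −0.31 against −0.01. Macrophages had 1 higher (19.5%) and 6 lower (21.3%), with −2.57 against −0.17. Smad6, an inhibitory SMAD, had 10.0 and 8.03 CPM in RPE, while endothelial barcodes had 257 and 244 (4.02 ± 0.09 over the mean of the others, adjusted p = 1.3e-12, edgeR's quasi-likelihood test). Id4 had 6.86 and 7.30 CPM in RPE and 389 and 338 in endothelial barcodes, and Id3 276 and 262 CPM in RPE and 4857 and 2678 in mural barcodes. Id1 in RPE, at 118 and 140 CPM, did not pass (−0.23 ± 0.21). The one target called higher in macrophages was Id2, at 1957 and 1701 CPM. Of the 6 SMADs, 0 were higher (26.1% of all genes) and 3 lower (24.6%) in RPE, with a median of −1.09 against −0.07. In endothelial barcodes 4 were higher (15.4%) and 0 lower (20.8%), with a median of 1.41 against −0.15. Smad6 and Smad7 are in both lists. Target mRNA levels also answer to signals other than BMPs, and no phosphorylated SMAD was measured.

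**Figure D5:**
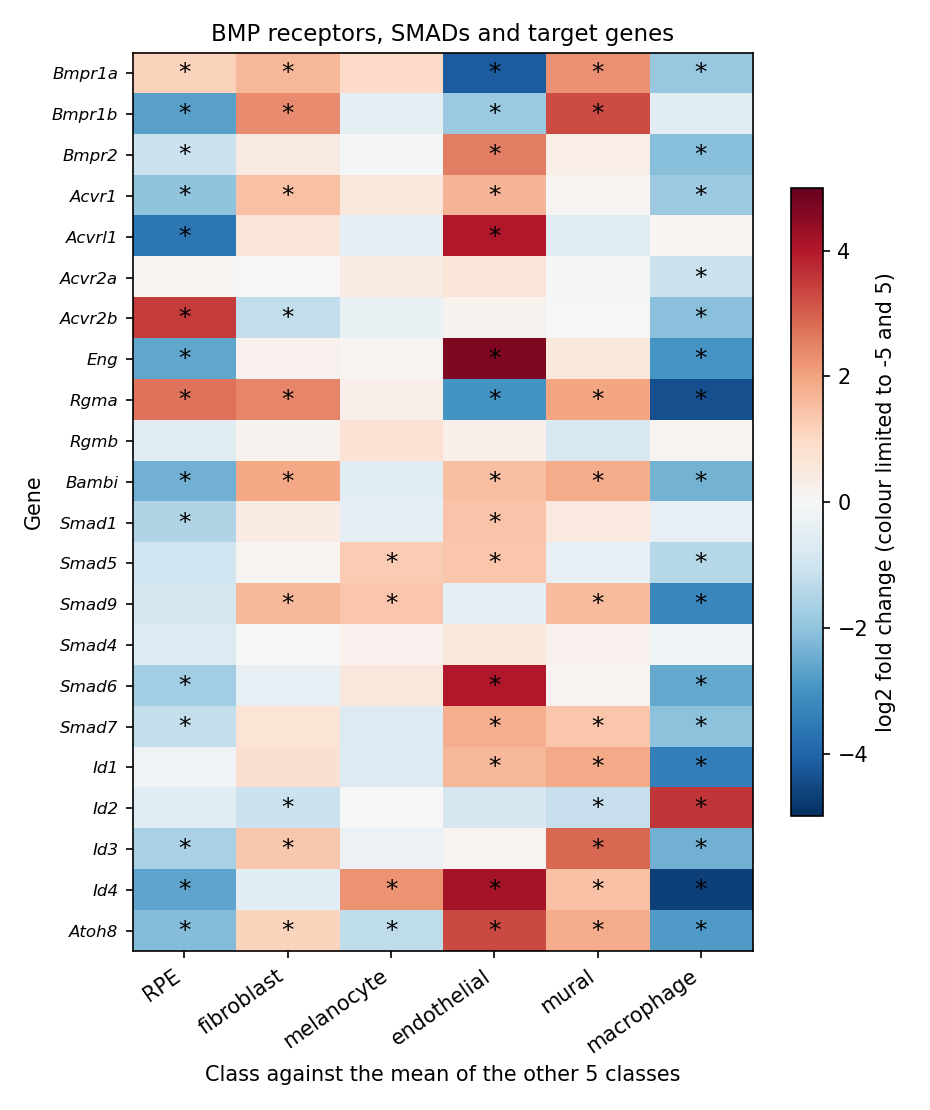
Log2 fold change (colour, limited to −5 and 5) of BMP receptors, SMADs and target genes (y axis) in each class against the mean of the other 5 classes (x axis). Asterisks mark called genes (adjusted p under 0.05, log2 fold change of 1 or more in either direction). The RPE column is mostly blue for SMADs and targets, where 5 of 7 targets were lower, and the endothelial column mostly red, where 5 of 7 were higher.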

How the data were processed

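Matrices of raw UMI counts per gene and barcode were deposited by the authors, made with Cell Ranger (version 4 per the file headers, 2.1.1 per the submitters' processing notes) on build mm10 per the submitters' processing notes. The annotation and use of strand are not given in the sources used here. Barcodes were kept and classed as the report states, and subgroups by at least 2 UMIs of their own marker lists. Counts were summed per library and class (12 sums) or subgroup (30 sums) and fitted with edgeR 4.0.16 in R 4.3.3 (TMM, robust quasi-likelihood fit, library as a block), with Benjamini-Hochberg adjustment over all genes tested. The fits were tested on simulated data. Both libraries hold every class, so the block pairs sums of one library. The 9 genes, the marker lists and the pathway lists were chosen with earlier results of these data known. Beside the 9, the rule names in each of 5 pathway lists the up to 4 genes with the largest higher call in any class, and for each of the 9 the 3 genes most correlated over the 30 sums, not all of which are printed. Bmpr1a, Id1, Id3 and Rgma were named after their values were seen. Doublets were kept, since the class rule keeps them, and Scrublet's 214 and 706 calls (2.52% and 5.27%) were removed in an alternative. Free RNA, estimated from barcodes of 100 UMIs or fewer (4.90% and 4.11% of UMIs), was left in except in an alternative. Raw totals in place of TMM moved the median log2 fold change of all genes from −0.17 to −0.59 in macrophages, from −0.07 to −0.24 in RPE, from −0.01 to 0.20 in melanocytes, from −0.15 to 0.01 in endothelial barcodes and from −0.08 to 0.08 in mural barcodes. The other alternatives were DESeq2 1.42.0, no filter on low counts, no block, a minimum of 2000 UMIs, a mitochondrial maximum of 10%, a class minimum of 10 UMIs, a subgroup minimum of 3 UMIs, no barcodes of a second class, and each library by itself. Leaving out barcodes with 5 RPE UMIs outside RPE, the top Grem1 barcode of each class, or barcodes with 5 UMIs of Pax6, Pcp4 and Optc was chosen after seeing the data. One gene that the naming rule selects is not reported here.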

Additional observations from a re-analysis of the deposited data

Results flagged for a closer look

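Barcodes that passed the limits but fell in no class, 678 and 784 of them, also carried members, at more UMIs than the limit that a count of 0 allows. Over both libraries they held 216 UMIs of Bmp2, 110 of Bmp4, 15 of Bmp6, 73 of Nog and 26 of Chrdl1. Bmp7 and Grem1 each had 3 UMIs in library 1, not above that limit, and 45 in library 2. Bmper had 3 and 7 UMIs. The Bmp2 level was high in a small set, the 38 and 34 barcodes led by Glul, Slc1a3, Aqp4 and Dkk3, the genes of a Müller glia list. They held 29 of 90 and 34 of 126 Bmp2 UMIs, or 187 and 135 CPM before scaling. Barcodes led by none of the lists, 468 and 485 of them, held 53 and 35 Bmp2 UMIs. In library 2 the Müller-list barcodes also held 32 of the 71 Bmp4 UMIs. There 11 further barcodes led by Pax6, Pcp4 and Optc held 30 Bmp2 UMIs (415 CPM before scaling) and 20 Bmp4 UMIs. Schwann-list barcodes (40 and 44) held 0 Bmp2 UMIs.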

How the results depend on the processing

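Of 54 pairs of a gene and a class, 30 changed under no alternative and 24 changed under at least 1. A change was a call gained or lost, or a reversed direction where either fit called the gene. Reversals between fits that both made no call were not counted. For each library by itself there was no test, and only a reversal of a called gene counted. The higher calls of Bmp4, Bmp6, Bmp7 and Nog in RPE, of Nog, Chrdl1 and Bmper in fibroblasts and of Bmp5 in mural barcodes never changed. They held in every alternative with a test and kept direction in each library by itself. Counts of genes called moved as follows. DESeq2 gave 3 lower in RPE and 3 in endothelial barcodes. Raw totals gave 1 lower in melanocytes, and no filter 1 in melanocytes and 0 in mural barcodes. Without barcodes of a second class there were 0 lower in RPE, 5 higher in fibroblasts, 1 higher in melanocytes and 0 lower in endothelial barcodes, and log2 ligand to antagonist ratios of −0.16 in fibroblasts (0.045 in library 1) and 0.92 in mural barcodes. Without Scrublet doublets there were 0 lower in RPE and 0 in mural barcodes. With free RNA subtracted there were 0 lower in melanocytes, endothelial and mural barcodes, 1 higher in endothelial barcodes and 2 lower in macrophages, the endothelial ratio was 5.01, and Bmp4 in melanocyte barcodes turned to 0.44 and Nog in melanocyte barcodes to 0.022. Grem1 in mural barcodes turned to −3.99 without barcodes positive for Pax6, Pcp4 and Optc. Each library by itself gave a mural ratio of −0.10 to 0.40, a fibroblast ratio of −0.68 to −0.34 and an RPE ratio of 2.63 to 3.19, and left no residual degrees of freedom for a test of single genes. The fit with no replicate block gained 1 call, Bmp2 lower in melanocytes (−1.30), and lost none. The causes were not tested. The macrophage ratio had no value with free RNA subtracted or without barcodes of a second class, since library 1 then had 0 antagonist UMIs. Depth limits Bmp5, Grem1 and Bmper, with 52, 217 and 95 UMIs in the 6 classes of library 1.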
